A study of Mus musculus with 51 samples.

Results

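The mouse mitochondrial genome carries 37 genes, and all 37 are rows of the count table, chosen here as the genes whose symbol begins with mt-. They are 37 of 55401 genes in the table and comprise 13 mRNAs, 2 ribosomal RNAs (rRNAs) and 22 transfer RNAs (tRNAs), all placed on the mitochondrial chromosome of GRCm38 (mm10) by GENCODE. The marker genes *mt-Co1* and *mt-Nd1* were among the most counted transcripts, with *mt-Co1* ranking first or second of all genes in each of the 30 libraries. The choice of members used no measured value.

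Mitochondrial DNA is transcribed from both strands as long precursors, and tRNAs lie between most of the genes and mark where the precursors are cut. The mRNAs encode core subunits of complexes I, III, IV and V of the respiratory chain, the rRNAs form the mitochondrial ribosome, and the remaining subunits come from nuclear genes. Most mitochondrial mRNAs carry a short poly(A) tail, so libraries made from polyadenylated RNA hold them in large amounts, while mature tRNAs are not polyadenylated.

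The study asked how loss or alteration of *Dmrt1*, the transcription factor that keeps testis cells male, changes the XY gonad. RNA was profiled in 10 groups of 3 libraries, all of a mixed 129Sv and C57Bl/6J background. At P28 these were whole gonads of *Dmrt1*+/+ (wild-type), *Dmrt1*+/-, *Dmrt1*-/- and *Dmrt1* R111G/+ mice, where R111G is a missense allele. At P3 they were whole gonads of *Dmrt1*+/-, *Dmrt1*-/-, *Dmrt1* R111G/+ and *Dmrt1* R111G/- mice. At P7 they were isolated Sertoli cells, the supporting cells of the testis tubule, of *Dmrt1* f/f mutants and of f/+ controls, and both groups carried Dhh-Cre and CAG-Stopflox-tdTomato. The control titles at P7 read +/+, whereas the genotype given is f/+ with Dhh-Cre, which leaves 1 intact copy in cells that express Cre. For the isolation, tubules of 2 mice were pooled, so a P7 library need not be 1 animal. The *Dmrt1*+/- libraries, which served as control for *Dmrt1* R111G/+, also lack 1 copy of the gene. Nothing in the labels says which replicates came from separate animals, so p-values measure the spread between libraries, which may be technical in part.

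Library totals ran from 5043838 to 12792811 counts, with a median of 8776697. *Dmrt1* itself had 2 to 4 counts in *Dmrt1*-/- gonads at P28 against 287 to 337 in wild-type testes, 17 to 31 in *Dmrt1*-/- gonads at P3, and 108 to 226 in P7 mutant cells against 968 to 1873 in controls. In some libraries values stood apart from those of their group. The first P7 control had an unusual mix of mitochondrial mRNAs, the second P28 *Dmrt1*+/- testis had a high share of mitochondrial rRNA, and the third P28 *Dmrt1*+/- testis had a summed spermatid marker level of 4866 CPM (counts per 1000000 counts of the library) against 14210 and 18249 in its replicates. The first P28 *Dmrt1* R111G/+ gonad had summed macrophage markers of 2281 CPM against 940 and 993, and Leydig cell markers of 8288 CPM against 4300 and 4309. P7 libraries contained Sertoli cell markers at a summed 3508 to 7104 CPM, with *Rhox5* at 0 in the mutant group, and 10 macrophage markers at 10.1 to 16.1 CPM. These libraries held undifferentiated spermatogonia markers at 136 to 224 CPM in mutant and 231 to 461 CPM in control cells. They held spermatid markers at 133 to 190 CPM in mutant and 134 to 144 CPM in control cells, against at most 2.61 CPM in P3 gonads. They also held 10 genes of the response to cell isolation at 4845 to 11970 CPM, against at most 840 CPM in whole gonads.

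A few sequences show how the members lie on the genome and why some of them are hard to count. From the start of the genome, *mt-Rnr1* (ENSMUSG00000064337, chrM:70-1024), *mt-Rnr2* (ENSMUSG00000064339, chrM:1094-2675), *mt-Tl1* (ENSMUSG00000064340, chrM:2676-2750), *mt-Nd1* (ENSMUSG00000064341, chrM:2751-3707) and *mt-Co1* (ENSMUSG00000064351, chrM:5328-6872) lie on the plus strand, without introns. Further on lie *mt-Nd6* (ENSMUSG00000064368, chrM:13552-14070, minus strand), *mt-Cytb* (ENSMUSG00000064370, chrM:14145-15288) and *mt-Tp* (ENSMUSG00000064372, chrM:15356-15422, minus strand). The genes are closely packed, and *mt-Atp6* and *mt-Atp8*, both subunits of ATP synthase, share the 43 bases at chrM:7927-7969. In that overlap the start codon of *mt-Atp6* and the stop codon of *mt-Atp8* are in capitals.
mt-Atp8 and mt-Atp6 overlap: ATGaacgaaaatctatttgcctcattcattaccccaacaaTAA
Some mRNAs end inside their stop codon, and the last T, in capitals below, becomes UAA only through the poly(A) tail that these libraries select for. The 3′ ends of *mt-Co3* (chrM:9367-9390), *mt-Nd4* (chrM:11521-11544) and *mt-Cytb* (chrM:15265-15288) are shown.
mt-Co3 end: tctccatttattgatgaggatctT
mt-Nd4 end: aactaattacaggcctgacaataT
mt-Cytb end: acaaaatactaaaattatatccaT
The tRNAs *mt-Tl1*, for leucine, and *mt-Tp*, for proline, are the tRNAs with called changes in the results. They are given with 15 flanking bases in lower case and the tRNA in capitals. *mt-Tl1* (chrM:2661-2765, tRNA at 2676 to 2750) begins where *mt-Rnr2* ends and is followed directly by *mt-Nd1*, and *mt-Tp* (chrM:15341-15437, minus strand, tRNA at 15356 to 15422) lies on the other strand.
mt-Tl1: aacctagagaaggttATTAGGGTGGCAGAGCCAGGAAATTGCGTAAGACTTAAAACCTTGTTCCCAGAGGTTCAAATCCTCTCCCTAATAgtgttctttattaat
mt-Tp: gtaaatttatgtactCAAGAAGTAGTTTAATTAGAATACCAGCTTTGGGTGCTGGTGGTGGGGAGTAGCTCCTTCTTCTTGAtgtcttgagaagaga

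Nuclear chromosomes also hold copies of mitochondrial DNA, and 8 with at least 95% identity over at least 100 bases were found in GRCm38. The longest copy matches chrM:6390-11042, 28.5% of the 16299-base mitochondrial genome, to chr1:24611535-24616188 on the minus strand at 99.936% identity. Across its 4654 aligned bases only 3 positions differ, counted from 1 at the start of the mitochondrial genome. They are the substitution A6393T in *mt-Co1*, the substitution T9461C in *mt-Nd3* and an A present only in the copy within *mt-Tr*. The stretches around the substitutions are shown with the differing base in capitals, the mitochondrial sequence before its nuclear copy.
mt-Co1 site: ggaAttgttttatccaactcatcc
copy: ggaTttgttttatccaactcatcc
mt-Nd3 site: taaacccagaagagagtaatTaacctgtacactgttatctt
copy: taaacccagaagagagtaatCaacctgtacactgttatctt
In total 11 members, 6 mRNAs and 5 tRNAs, lie wholly inside this copy, with 31.3% of *mt-Co1* and 63.6% of *mt-Nd4*. A read from these stretches can seldom be assigned to the mitochondrial gene or its copy, and how reads with several matches were treated is not given in the sources used here.

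Levels per length separated these members from the rest. As the median over 30 libraries in CPM per kilobase of gene length, *mt-Co1* (complex IV) stood at 14354, *mt-Nd1* (complex I) at 8223 and *mt-Cytb* (complex III) at 7230. The complex I genes *mt-Nd2*, *mt-Nd5* and *mt-Nd4* followed with 3595, 3191 and 2620 CPM per kilobase, and *mt-Nd6*, the only mRNA on the minus strand, had 908. The 6 mRNAs wholly inside the chromosome 1 copy were far lower. Among them *mt-Co3* had 43.0, *mt-Atp6* 32.5, *mt-Co2* 28.2, *mt-Atp8* 15.3, *mt-Nd3* 8.60 and *mt-Nd4l* 8.34 CPM per kilobase. *mt-Co1* thus exceeded *mt-Co2* 508-fold and *mt-Co3* 334-fold per length, although the 3 genes encode subunits of the same complex. The copy has 7 annotated genes of its own. Those matching *mt-Co2*, *mt-Atp6*, *mt-Co3*, *mt-Nd3* and *mt-Nd4l* held 2.72 to 4.53 times as many counts over all libraries as the member they match, whereas those matching *mt-Co1* and *mt-Nd4* held 0.00376 and 0.00799 times as many. The levels of the mRNAs inside the copy are uncertain for this reason. The rRNAs had 826 (*mt-Rnr1*) and 1349 (*mt-Rnr2*) CPM per kilobase.

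**Figure D1:**
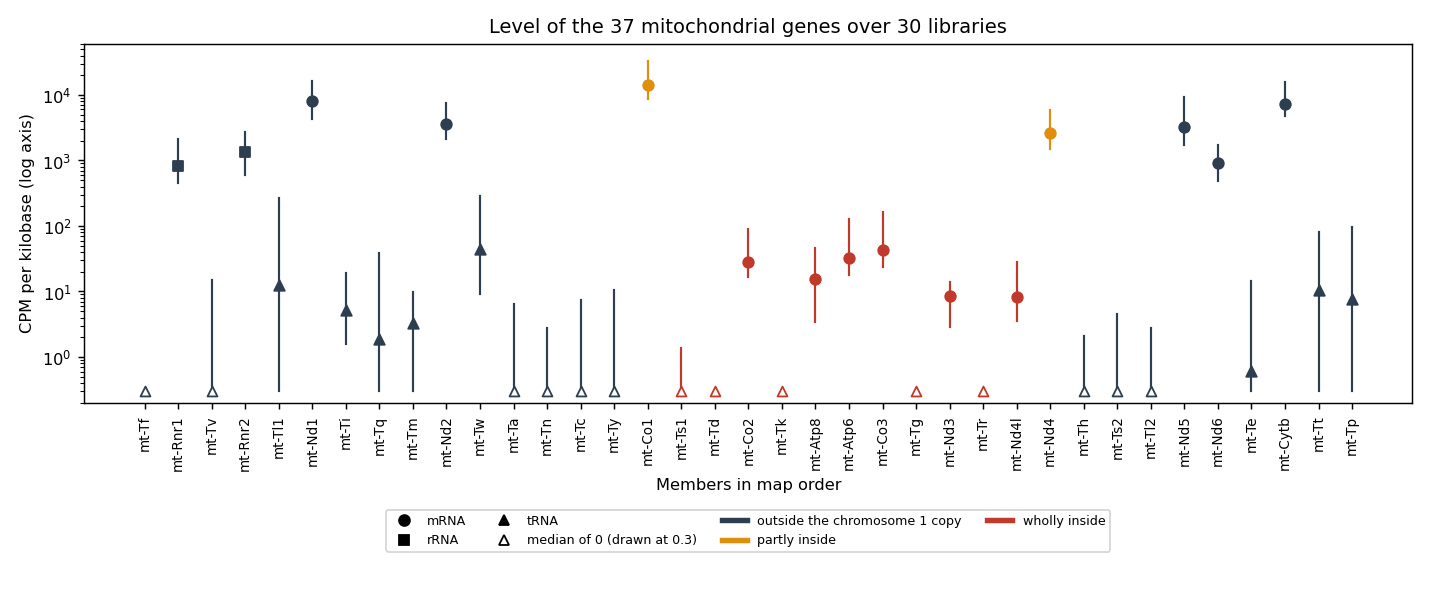
Level of each of the 37 members along the genome in CPM per kilobase on a log axis; symbols give the median and lines the lowest and highest of 30 libraries, and colours mark position relative to the chromosome 1 copy. The mRNAs outside it or partly inside lie at 908 or more, and those wholly inside at 43.0 or less.

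The tRNAs were hardly counted. Of the 22, 5 had no count in any library, namely *mt-Tf*, *mt-Td*, *mt-Tk*, *mt-Tg* and *mt-Tr*. For *mt-Tf* this allows a level of up to 0.234 to 0.595 CPM, depending on the library's depth and for counting error only. The other 4 lie wholly inside the chromosome 1 copy, where reads may not have been assigned, and no limit is given for them. *mt-Tw* (tryptophan) and *mt-Tl1* together made up 66.3% of all tRNA counts, and 8 of the tRNAs lie on the minus strand, as does *mt-Nd6*. After the filter on low counts, 18 members were tested at P28 and at P3, and 19 at P7 and in the fit of all libraries. The 13 mRNAs and 2 rRNAs always passed, and the rest were tRNAs, which could pass through a single group in which they were high.

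At P28 the share of all counts that fell on the 37 members was lowest in wild-type testes and highest in *Dmrt1* R111G/+ gonads. Wild-type testes had 3.41%, 2.66% and 2.77% (2.94% ± 0.404, SD, n = 3), and *Dmrt1*+/- testes had 4.16%, 5.13% and 5.34% (4.88% ± 0.627). *Dmrt1*-/- gonads had 5.98%, 6.16% and 5.25% (5.79% ± 0.482), and *Dmrt1* R111G/+ gonads had 7.72%, 8.07% and 6.46% (7.42% ± 0.849). All *Dmrt1*-/- and all *Dmrt1*+/- libraries lay above all wild-type libraries, and all *Dmrt1* R111G/+ libraries lay above all *Dmrt1*+/- libraries. The share was 1.97 times as large in *Dmrt1*-/- as in wild-type, 1.66 times as large in *Dmrt1*+/- as in wild-type, and 1.52 times as large in *Dmrt1* R111G/+ as in *Dmrt1*+/-. Each of these 3 differences had an exact two-sided permutation p of 0.1, the smallest that 3 libraries against 3 can give, and 0.275 after Benjamini-Hochberg adjustment over 11 comparisons. *Dmrt1*-/- and *Dmrt1*+/- libraries did not separate completely, at 1.19 times and an exact p of 0.2. In bulk samples such as these, fewer cells of a type and less RNA per cell cannot be told apart.

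**Figure D2:**
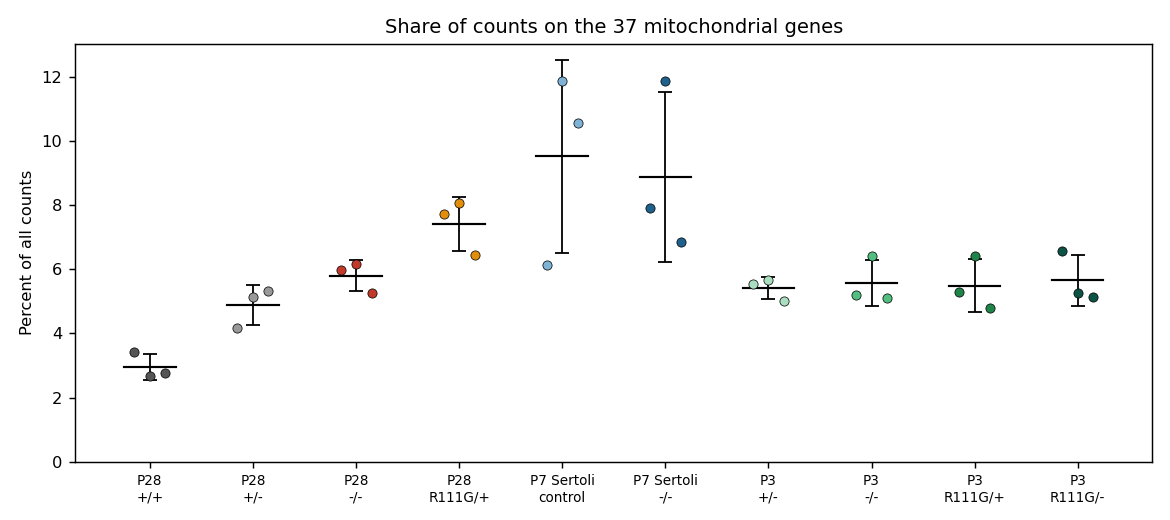
Percent of all counts that fall on the 37 mitochondrial genes, 1 point per library, with bars for the mean and SD of 3 libraries per group. The P28 wild-type libraries sit between 2.66% and 3.41%, below every other library, and the P7 libraries spread from 6.13% to 11.9%.

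Marker genes of several cell types moved in the same comparisons, given here in the order wild-type, *Dmrt1*+/-, *Dmrt1*-/- and *Dmrt1* R111G/+. The 12 spermatid markers summed to 14021 to 17407, 4866 to 18249, 30.9 to 35.0 and 683 to 1020 CPM. The 15 Sertoli cell markers summed to 942 to 1014, 1345 to 2530, 2198 to 2461 and 2462 to 3258 CPM. The 11 granulosa cell markers summed to 293 to 368, 438 to 1031, 4785 to 5070 and 842 to 1247 CPM. The 8 Leydig cell markers summed to 906 to 2220, 1482 to 2700, 10468 to 12142 and 4300.5 to 8288 CPM. The 10 macrophage markers summed to 408 to 583, 464 to 724, 862 to 1065 and 940 to 2281 CPM. The 7 stromal markers summed to 429 to 716, 685 to 1116, 4697 to 5917 and 1902 to 3388 CPM, and the 8 endothelial markers to 38.0 to 48.1, 51.0 to 73.3, 480 to 563 and 84.3 to 136 CPM. All wild-type libraries lay below all others at P28 for the Sertoli, granulosa and endothelial sums, as they did for the mitochondrial share. No marker of these lists was at 0 in any of the 4 groups. The part of these cells in the mitochondrial share was not tested.

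Gene by gene, 2 members rose and 1 fell in *Dmrt1*-/- gonads, compared with wild-type testes, by the study's thresholds, an adjusted p below 0.05 and more than a 2-fold change, with the usual trimmed mean scaling, while scaling to somatic marker lists turned the rises into falls. By these criteria 66.6% of all 20952 genes tested were called, a larger share than the 3 of 18 members. *mt-Rnr2*, the large rRNA, stood at 1054, 954 and 858 CPM in wild-type testes and at 2498, 2308 and 1836 CPM in *Dmrt1*-/- gonads. It rose 2.32-fold, a log2 fold change of 1.21 ± 0.36 (SE, adjusted p = 0.0068). *mt-Atp8* rose from 1.39, 1.03 and 1.29 CPM to 1.96, 4.26 and 1.45 CPM (log2 1.03 ± 0.42, adjusted p = 0.038), a call on 8 to 43 counts per library for a gene inside the chromosome 1 copy. Without the second *Dmrt1*-/- library its change was 0.45 (adjusted p = 0.302), and its call was also lost without any 1 of the wild-type libraries. *mt-Tl1* fell, as described below.

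Without the fold limit, 12 of 18 members were higher and 1 lower at an adjusted p below 0.05, against 34.1% of all genes higher. They were *mt-Rnr1* and *mt-Rnr2*, the complex I genes *mt-Nd1*, *mt-Nd2*, *mt-Nd4*, *mt-Nd5* and *mt-Nd6*, the complex III gene *mt-Cytb*, the complex IV genes *mt-Co2* and *mt-Co3* and the ATP synthase genes *mt-Atp6* and *mt-Atp8*. *mt-Nd1* stood at 4941, 4117 and 3770 CPM in wild-type testes and 8111, 8502 and 6747 CPM in *Dmrt1*-/- gonads (log2 0.86 ± 0.22, adjusted p = 0.0023). *mt-Nd6* had the smallest adjusted p of all members, with 233, 242 and 236 CPM against 449, 416 and 386 CPM (log2 0.81 ± 0.18, adjusted p = 0.00079). *mt-Cytb* differed by 0.70 ± 0.23, *mt-Nd5* by 0.72 ± 0.19 and *mt-Nd4* by 0.72 ± 0.21 on the log2 scale. *mt-Co1*, the most abundant member, missed the threshold, with 16119, 12280 and 13255 CPM against 20688, 21291 and 18116 CPM (log2 0.53 ± 0.24, adjusted p = 0.061), although its groups did not overlap. In all, 14 members had levels that did not overlap and were higher in *Dmrt1*-/- gonads, against 36.4% of all genes.

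These directions hold relative to the bulk of genes. The median log2 fold change over all genes was -0.31 with trimmed mean scaling, and that of the 18 members was 0.72. With library size alone the median of all genes was 0.01, and 12 members and 6637 of 20952 genes were called higher. Another scaling used the trimmed mean over macrophage, endothelial, peritubular myoid and stromal marker genes, the somatic marker lists. It moved the median of all genes to -2.65. No member rose and 16 fell, while 472 of 20952 genes rose and 16182 fell.

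**Figure D3:**
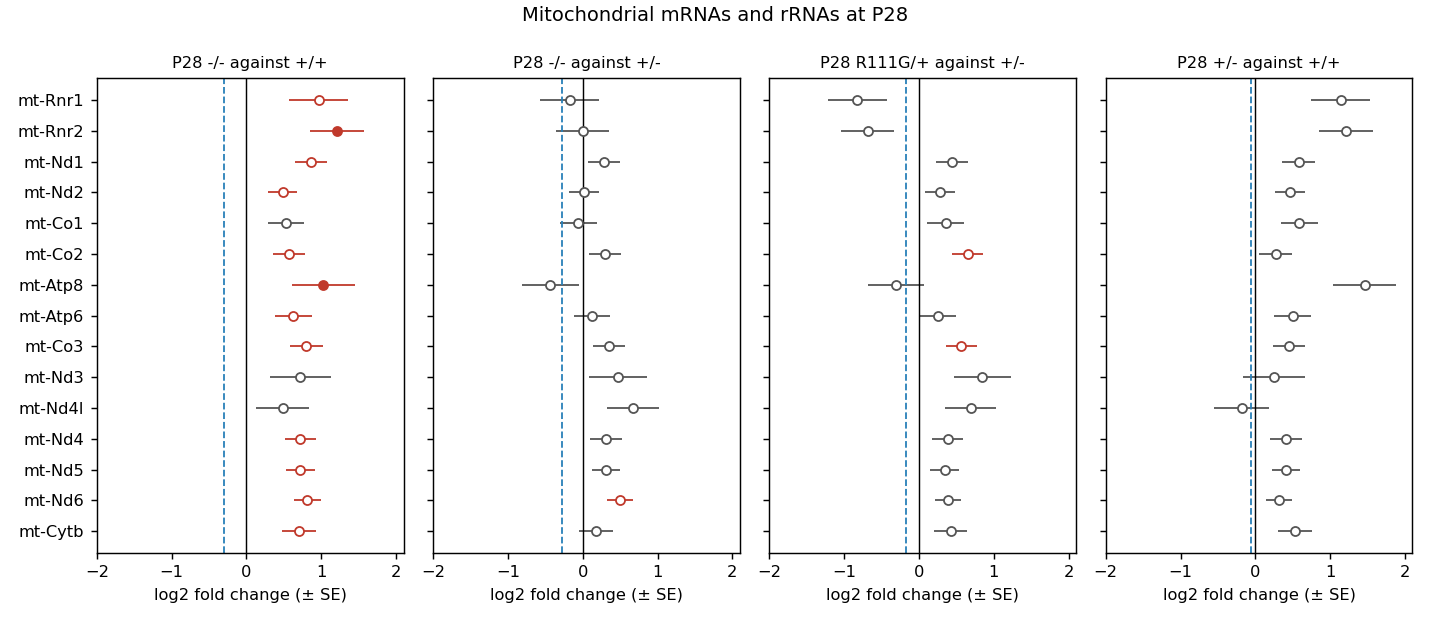
Log2 fold change with its SE of the 2 rRNAs and 13 mRNAs in 4 comparisons at P28; filled red points passed both thresholds, open red points the adjusted p alone, open grey points neither, and the dashed line is the median of all genes. All 15 lie above 0 in *Dmrt1*-/- against wild-type, from 0.48 to 1.21, and scaling to somatic marker lists turns this direction.

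Against *Dmrt1*+/- testes, *Dmrt1*-/- gonads had 1 called member, *mt-Tl1*, which fell, while 58.5% of all genes were called. When scaled to somatic marker lists, 17 of 18 members fell, as did 15863 of 20952 genes. With trimmed mean scaling *mt-Nd6* was higher at an adjusted p of 0.020 with a change of 0.50 ± 0.18 (log2), from 285, 313 and 288 CPM to 449, 416 and 386 CPM, where 30% of all genes were higher by this criterion. The other mRNAs ranged from -0.43 (*mt-Atp8*) to 0.67 (*mt-Nd4l*). *mt-Nd4l*, *mt-Nd5* and *mt-Nd6* had every *Dmrt1*-/- library above every *Dmrt1*+/- library, 3 of 18 members against 32.5% of all genes. The rRNAs differed by -0.17 ± 0.39 (*mt-Rnr1*) and 0.00 ± 0.35 (*mt-Rnr2*). Both values depend on the second *Dmrt1*+/- testis, since without it *mt-Rnr1* differed by 0.62 (adjusted p = 0.048) and *mt-Rnr2* by 0.70 (adjusted p = 0.017).

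*Dmrt1*+/- against wild-type testes gave 0 called members of 18 and 0 called genes of 20952 (0%) by edgeR. At an unadjusted p below 0.05, 9 members and 3769 genes differed, and DESeq2 called 0 members, 28 genes higher and 5 lower. In 8 members, among them *mt-Co1*, *mt-Nd1* and *mt-Cytb*, the *Dmrt1*+/- values all exceeded the wild-type values, against 11.7% of all genes. *mt-Co1* stood at 19188, 22254 and 21091 CPM in *Dmrt1*+/- testes (log2 0.59 ± 0.25, adjusted p = 0.249). *mt-Rnr2* had 1241, 3921 and 1466 CPM, and its change of 1.21 ± 0.36 was 0.51 without the second testis, that of *mt-Rnr1* 0.34 instead of 1.14. The comparison with *Dmrt1*-/- gonads shares the wild-type libraries, so the values of both are not independent.

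*Dmrt1* R111G/+ against *Dmrt1*+/- gonads gave 0 called members by edgeR and by DESeq2, with 4 at an unadjusted p below 0.05, where 34.8% of all genes were called. At an adjusted p below 0.05 alone *mt-Co2* was higher by 0.65 ± 0.21 (log2, adjusted p = 0.020) and *mt-Co3* by 0.57 ± 0.21 (adjusted p = 0.038), and 16.9% of all genes were higher. By the same criterion 11 members and 5716 of 20952 genes were higher with library size alone. Without the filter 8 of 25 members tested and 4732 of 37880 genes were higher, and with the DESeq2 test 5 members and 3658 of 20947 genes. *mt-Co2* and *mt-Co3* lie inside the chromosome 1 copy. *mt-Co1* stood at 27624, 30075 and 22350 CPM against 19188, 22254 and 21091 CPM (log2 0.36 ± 0.24, adjusted p = 0.237). In 9 members, all of them mRNAs and including *mt-Nd1*, *mt-Co1*, *mt-Nd4*, *mt-Nd5* and *mt-Cytb*, all *Dmrt1* R111G/+ libraries were above all *Dmrt1*+/- libraries, against 20.5% of all genes. The rRNAs were not, with 639, 680 and 417 CPM of *mt-Rnr1* against 498, 1902 and 677 CPM. Their changes of -0.83 ± 0.39 and -0.69 ± 0.36 (*mt-Rnr2*) became -0.03 and 0.02 without the second *Dmrt1*+/- testis. The members' median was 0.39 where that of all genes was -0.17. Scaling to somatic marker lists moved the latter to -1.25, and 3 members and 11423 of 20952 genes fell.

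Shares within the mitochondrial counts do not depend on how a library is scaled. The rRNAs took 3.75%, 4.55% and 4.09% of these counts in wild-type testes and 6.22%, 5.52% and 5.25% in *Dmrt1*-/- gonads, and these groups did not overlap. They took 3.25%, 3.12% and 2.71% in *Dmrt1* R111G/+ gonads, below all other libraries of the series. In *Dmrt1*+/- testes they took 3.76%, 10.1% and 4.31%, so that the mean of 6.07% was 4.04% without the second library. Genes of complex I took 43.6% to 44.1% of the mRNA counts in *Dmrt1*-/- gonads, above the 40.4% to 43.5% of wild-type and the 38.8% to 40.7% of *Dmrt1*+/- testes. Complex IV took 38.2% to 39.6% in *Dmrt1*-/- gonads, below the 40.0% to 43.4% and 43.2% to 44.4% of the same controls. Over 30 libraries *mt-Co1* had 6409507 counts, while *mt-Co2* and *mt-Co3*, inside the chromosome 1 copy, had 6131 and 10947. The complex IV share is thus nearly that of *mt-Co1* alone. *mt-Nd3* and *mt-Nd4l*, also inside the copy, had 785 and 721 counts and add little to that of complex I. *mt-Nd6* took 0.753% to 0.842% of the mRNA counts in *Dmrt1*-/- gonads and 0.605% to 0.640% in *Dmrt1*+/- testes. In wild-type testes it took 0.611% to 0.786%, which overlapped with *Dmrt1*-/- gonads. Among 56 such tests of shares within an age, 10 had groups that did not overlap, and the smallest adjusted p was 0.56, since no exact p could be below 0.1.

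**Figure D4:**
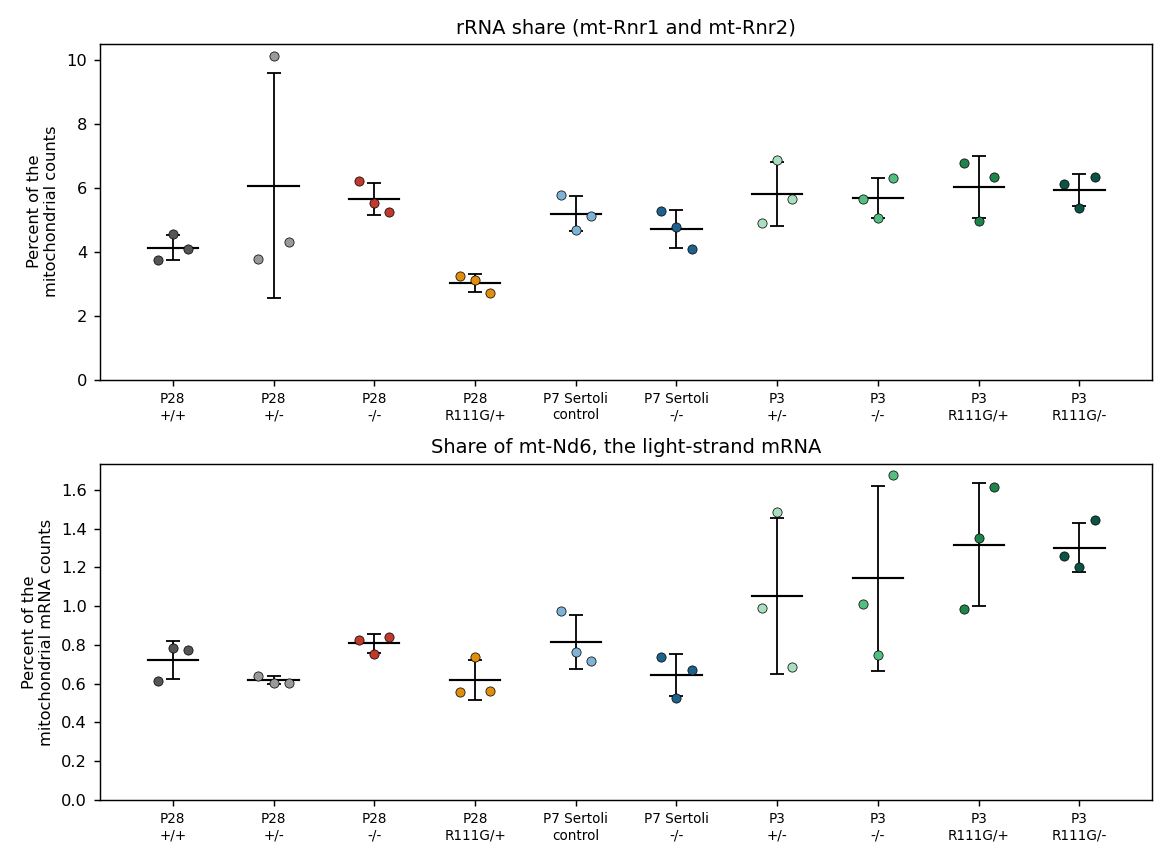
Share of the rRNAs in the mitochondrial counts (top) and of *mt-Nd6* in the mitochondrial mRNA counts (bottom), in percent, 1 point per library, with the mean and SD of 3 libraries per group. The second P28 *Dmrt1*+/- library stands at 10.1% in the top panel, and P3 groups spread from 0.685% to 1.68% in the bottom panel.

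With trimmed mean scaling *mt-Tl1* was the only member that fell in *Dmrt1*-/- gonads at P28. It had 4, 1 and 4 counts there (0.435, 0.0990 and 0.323 CPM), against 16, 9 and 7 counts (1.71, 1.16 and 0.904 CPM) in wild-type and 17, 17 and 17 counts (1.49, 1.79 and 1.44 CPM) in *Dmrt1*+/- testes. All *Dmrt1*-/- libraries lay below all controls, in a comparison based on 1 to 17 counts. The log2 fold change was -2.12 ± 0.51 (adjusted p = 0.0018) against wild-type and -2.41 ± 0.49 (adjusted p = 0.00058) against *Dmrt1*+/-. The gene passed the filter on low counts through the groups in which it was high and did not pass it in the fit of only *Dmrt1*-/- and wild-type libraries, so that these p-values rest on a gene admitted for its high groups. With no filter its log2 fold changes were -2.15 (adjusted p = 0.0034) and -2.53 (adjusted p = 0.00031). *Dmrt1* R111G/+ gonads had 17, 28 and 18 counts, a change of 0.01 ± 0.39 from *Dmrt1*+/-. *mt-Rnr2* and *mt-Nd1*, its neighbours on the same precursor, were higher than in wild-type testes in the same *Dmrt1*-/- libraries.

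The other tRNAs tested at P28 were not called against wild-type. *mt-Tw* had 1.50, 0.903 and 0.646 CPM in wild-type testes and 3.58, 1.39 and 2.50 CPM in *Dmrt1*-/- gonads (log2 1.26 ± 0.58, adjusted p = 0.062), with overlap. *mt-Ti*, for isoleucine, had 1 to 3 counts in wild-type testes and 5 to 8 counts in *Dmrt1*-/- gonads (log2 1.27 ± 0.68, adjusted p = 0.099). All tRNAs together took 19 to 86 counts per library at P28, 0.00507% to 0.0140% of the mitochondrial counts.

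**Figure D5:**
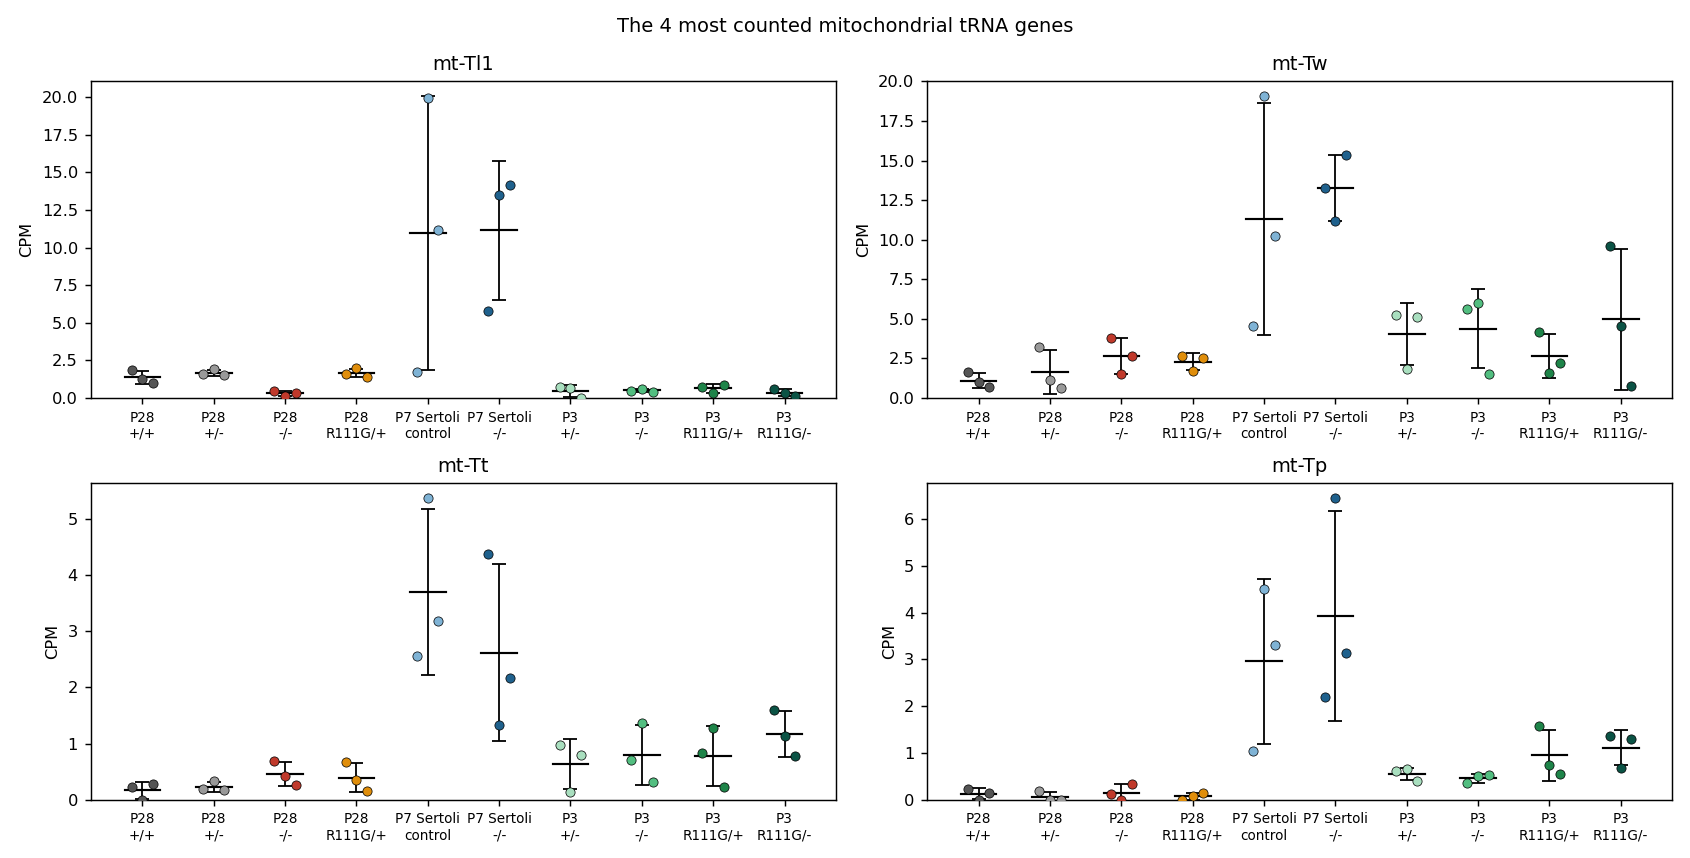
CPM of the 4 most counted mitochondrial tRNA genes, scaled over all libraries, 1 point per library, with the mean and SD of 3 libraries per group. *mt-Tl1* lies at or below 0.463 CPM in the P28 *Dmrt1*-/- libraries, and the library with the highest value of each gene is a P7 Sertoli cell library.

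In isolated P7 Sertoli cells the members' share of counts varied more between replicates than between groups. Mutant cells had 7.92%, 11.9% and 6.84% (8.88% ± 2.65, SD, n = 3), and controls 6.13%, 11.9% and 10.6% (9.52% ± 3.01), with overlap and an exact p of 1. By edgeR 0 of 19 members were called, with 0 at an unadjusted p below 0.05 and 0 called by DESeq2, while 4.56% of 14013 genes were called. *mt-Co1* had 31522, 51285 and 29639 CPM in mutant and 31108, 52863 and 43666 CPM in control cells (log2 -0.18 ± 0.36). *mt-Rnr1* had the lowest adjusted p, 0.307, with a change of -0.55. The first control stood apart in its mix of mRNAs. Complex I took 27.96% of its mRNA counts, against 39.9% and 40.5% in the other controls and 40.7% to 41.6% in mutant cells. Complex IV took 57.3%, against 44.4% and 44.9% in the other controls and 43.0% to 43.8% in mutant cells. Its *mt-Nd5* to *mt-Co1* ratio was 0.105, against 0.274 and 0.255 in the other controls and 0.323 to 0.341 in mutant cells. Mutant and control libraries thus did not overlap in these values. The exact permutation p was 0.1 for each complex share (adjusted p = 0.56), and the ratio was not tested. Without the first control the control mean share was 11.2%. The changes of the 15 mRNAs and rRNAs then ran from -0.72 (*mt-Rnr1*) to -0.02 (*mt-Atp8*). None had an adjusted p below 0.05, the lowest being 0.243 for *mt-Nd6*.

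All tRNAs together had 104 to 314 counts per P7 library, 0.0215% to 0.0556% of the mitochondrial counts. *mt-Tl1* had 53, 71 and 72 counts in mutant and 15, 115 and 81 counts in control cells (log2 0.03 ± 0.71). *mt-Tp* had 20, 34 and 16 against 9, 26 and 24 counts, and *mt-Tt*, for threonine, 40, 7 and 11 against 22, 31 and 23 counts. Mutant and control libraries overlapped for each of the 3, and for *mt-Tw* (log2 0.24 ± 0.46). P7 differs from the other ages in tissue and isolation as well as in age, and these cannot be told apart.

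At P3 the 4 genotypes had nearly the same share of counts on the members. *Dmrt1*+/- gonads had 5.55%, 5.67% and 5.01%, *Dmrt1*-/- gonads 5.19%, 6.40% and 5.11%, *Dmrt1* R111G/+ gonads 5.29%, 6.40% and 4.78%, and *Dmrt1* R111G/- gonads 6.57%, 5.25% and 5.14%. All groups overlapped, and the differences from *Dmrt1*+/- were 0.159, 0.0827 and 0.245 percentage points (exact p of 0.8, 1 and 0.8). By edgeR 0 of 18 members were called in each of the 3 comparisons, with 0 at an unadjusted p below 0.05 and 0 by DESeq2. Among all 15837 genes 0.511% were called in *Dmrt1*-/-, 0.133% in *Dmrt1* R111G/+ and 0.196% in *Dmrt1* R111G/- gonads, so few members would be called at these rates. The mRNAs and rRNAs differed from *Dmrt1*+/- by -0.09 (*mt-Nd2*) to 0.18 (*mt-Co2*) in *Dmrt1*-/-, by -0.21 (*mt-Nd3*) to 0.30 (*mt-Nd6*) in *Dmrt1* R111G/+ and by -0.12 (*mt-Nd3*) to 0.36 (*mt-Nd6*) in *Dmrt1* R111G/- gonads on the log2 scale. All 3 comparisons share the same *Dmrt1*+/- libraries. *mt-Nd6* varied widely within groups, with 536, 781 and 321 CPM in *Dmrt1*+/- and 491, 466 and 792 CPM in *Dmrt1*-/- gonads. In the comparisons with *Dmrt1*+/- gonads *mt-Tp* alone did not overlap, and only in *Dmrt1* R111G/- gonads. It had 0.637, 0.684 and 0.423 CPM in *Dmrt1*+/- and 1.45, 0.728 and 1.36 CPM in *Dmrt1* R111G/- gonads (log2 0.99 ± 0.51, adjusted p = 0.777). In this comparison 710 of 15837 genes were higher and 740 lower without overlap. Pairs of groups without *Dmrt1*+/- were not compared.

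Between P3 and P28 the same genotype could be followed in 3 cases, in a fit of all 30 libraries. In *Dmrt1* R111G/+ gonads the share on the members was 5.49% ± 0.829 at P3 and 7.42% ± 0.849 at P28 (SD, n = 3 each), with no overlap and an exact p of 0.1. In *Dmrt1*+/- gonads it was 5.41% ± 0.349 and 4.88% ± 0.627, and in *Dmrt1*-/- gonads 5.57% ± 0.725 and 5.79% ± 0.482, and these groups overlapped. Single members called were tRNAs with few counts, and both passed the filter of this fit on the P7 Sertoli cell libraries, where they were highest. *mt-Tp* fell from P3 to P28 in *Dmrt1*+/- (log2 -2.84 ± 1.02, adjusted p = 0.015) and in *Dmrt1* R111G/+ gonads (log2 -3.38 ± 0.86, adjusted p = 0.0017). Its counts were 5, 5 and 3 at P3 and 2, 0 and 0 at P28 in the former, and 15, 7 and 5 against 0, 1 and 2 in the latter. *mt-Tl1* rose in *Dmrt1*+/- gonads, from 6, 5 and 0 counts to 17, 17 and 17 (log2 1.81 ± 0.74, adjusted p = 0.031), but this call was lost with library size alone (adjusted p = 0.052) and without any 1 of the P28 libraries or the second or the third P3 library (adjusted p of 0.0567 to 0.193). *mt-Nd6* was lower at P28 by 0.71 ± 0.26 in *Dmrt1*+/- (adjusted p = 0.016) and by 0.66 ± 0.26 in *Dmrt1* R111G/+ gonads (adjusted p = 0.032), under 2-fold, and *mt-Cytb* was higher by 0.58 ± 0.25 in the latter (adjusted p = 0.044). In *Dmrt1*-/- gonads 0 of 19 members were called by edgeR, with 0 at an unadjusted p below 0.05 and 0 by DESeq2. Of all 21696 genes 54.7% were called in *Dmrt1*+/-, 41.1% in *Dmrt1* R111G/+ and 23% in *Dmrt1*-/- gonads. Age and any difference in when libraries were made cannot be told apart.

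The differences between effects were tested in the same fit, whose filter *mt-Tl1* passed on the P7 libraries that enter the next contrast. The *Dmrt1*-/- against *Dmrt1*+/- effect on *mt-Tl1* at P28 minus the mutant against control effect at P7 was -2.44 ± 0.93 on the log2 scale (adjusted p = 0.032), and 39.4% of all genes were called in this contrast. When 1 of the 12 libraries was left out, the adjusted p ran from 0.0058 to 0.126, and the call held only without the first *Dmrt1*-/- library, the first P7 mutant or the first or second P7 control. *mt-Nd6* differed in the same contrast by 0.89 ± 0.36 (adjusted p = 0.044), under the 2-fold limit. Between P28 and P3 the *Dmrt1*-/- effect gave 0 called members by edgeR, with *mt-Tl1* at -2.52 (adjusted p = 0.077) the only 1 at an unadjusted p below 0.05, and 1 by DESeq2, while 40.9% of all genes were called. The *Dmrt1* R111G/+ effect gave 0 by edgeR, 0 at an unadjusted p below 0.05 and 0 by DESeq2, with 13.4% of all genes called.

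Nuclear genes supply most subunits of the respiratory chain, and 80 of the 82 listed were tested at P28. In *Dmrt1*-/- gonads against wild-type testes 15 rose and 5 fell, where 66.6% of all genes were called, with a median of 0.34 where that of all genes was -0.31. Among them *Ndufb11* (complex I) rose by 2.45 ± 0.29, *Ndufa4* (complex IV) by 2.40 ± 0.29, *Atp5g3* (ATP synthase) by 2.58 ± 0.28 and *Cyc1* (complex III) by 1.57 ± 0.21 on the log2 scale, while *Ndufv2* fell by 1.43 and *Cox7a2* by 1.34. The 4 complex II genes, which have no mitochondrial partner, were higher at an adjusted p below 0.05 but under 2-fold, by 0.57 (*Sdhd*) to 0.70 (*Sdha*). Against *Dmrt1*+/- testes 11 rose and 3 fell, where 58.5% of all genes were called. In *Dmrt1* R111G/+ gonads, where 34.8% of all genes were called, 3 fell and no other was called (*Cox7c*, *Cox7a2* and *Atp5mpl*, by 1.04, 1.00 and 1.05), with a median of -0.05 beside 0.39 for the mitochondrial members. The ratio of mitochondrial mRNA counts to those of the nuclear subunits was 9.06 to 9.57 in wild-type, 12.6 to 15.1 in *Dmrt1*+/-, 10.5 to 11.3 in *Dmrt1*-/- and 16.6 to 20.4 in *Dmrt1* R111G/+ gonads, and it ran from 13.3 to 56.8 in P7 Sertoli cells and from 9.52 to 13.8 at P3. At P28 these ranges did not overlap between any of the 4 genotypes.

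The 4 germ cell forms of respiratory chain genes that were tested fell in *Dmrt1*-/- gonads against wild-type testes. There 66.6% of all genes were called, and 8476 of 20952 were lower. *Cox8c* changed by -9.34 ± 0.42, *Cox7b2* by -8.74 ± 0.52, *Cyct*, the testis cytochrome c, by -7.99 ± 0.47 and *Cox6b2* by -4.98 ± 0.30 against wild-type (log2). In *Dmrt1* R111G/+ against *Dmrt1*+/- gonads the same 4 fell, by 1.30 (*Cyct*) to 1.68 (*Cox6b2*). In this comparison 34.8% of all genes were called, and 5891 of 20952 were lower.

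The counts for nuclear genes that act on mitochondrial DNA and its RNA stand beside 66.6% of all genes called in *Dmrt1*-/- against wild-type gonads and 34.8% in *Dmrt1* R111G/+ against *Dmrt1*+/- gonads, and no list's share was above these. Of 30 genes of transcription and RNA handling, 1 rose and 2 fell in *Dmrt1*-/- gonads against wild-type. *Tfb1m*, a methyltransferase of the small rRNA, fell by 2.54, *Mterf3* fell by 1.60, and *Hsd17b10*, a subunit of the enzyme that trims tRNA 5′ ends, rose by 2.54 ± 0.29. Against *Dmrt1*+/-, *Dmrt1* R111G/+ gonads had 1 higher and 3 lower, with *Tfb1m* at -1.55 ± 0.22, *Tfam*, which packages mitochondrial DNA and starts its transcription, at -1.25 ± 0.31 and *Hsd17b10* at 1.01 ± 0.28. Of 16 genes of replication and upkeep, 7 rose and 3 fell in *Dmrt1*-/- gonads against wild-type, among them *Lig3*, the mitochondrial DNA ligase (-2.49 ± 0.21), *Rrm2b* (1.54 ± 0.21), *Slc25a36* (1.33 ± 0.15) and *Slc25a33* (-1.72 ± 0.22). In *Dmrt1* R111G/+ gonads 1 of these fell, *Lig3* by 1.01. Of 9 regulators of biogenesis, *Esrrb* alone was called in *Dmrt1*-/- gonads (-5.00 ± 0.69). In *Dmrt1* R111G/+ gonads *Esrrb* fell by 2.21, *Ppargc1a*, a coactivator of nuclear mitochondrial genes, fell by 1.01 and *Esrrg* rose by 1.24 ± 0.36.

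The same 66.6% and 34.8% of all genes called stand beside the next lists, whose shares were also lower. Of 15 genes of the outer membrane, protein import and the matrix, 5 rose and 2 fell in *Dmrt1*-/- gonads against wild-type. *Hspd1*, the matrix chaperonin, rose by 3.12 ± 0.25 and *Phb* by 2.25 ± 0.26, whereas *Vdac2* fell by 1.61 and *Tomm22*, an import receptor, by 2.06. Of 76 proteins of the mitochondrial ribosome tested, 16 rose and 5 fell, with *Mrps24* at 1.94 ± 0.27, *Mrpl49* at 1.41 ± 0.16, *Mrpl51* at -1.79 ± 0.18 and *Mrpl39* at -1.75 ± 0.24. In *Dmrt1* R111G/+ gonads *Mrpl39* fell by 1.07 and no other was called. Over the nuclear respiratory chain genes the median log2 fold change was -0.34 at P7, beside -0.00576 over all genes. At P3 it was -0.07 in *Dmrt1*-/- gonads beside -0.00490, and 0.12 in *Dmrt1* R111G/- gonads beside 0.00104. No nuclear respiratory chain gene was called in these comparisons, where 4.56%, 0.511% and 0.196% of all genes were called, in the same order.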

How the data were processed

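Polyadenylated RNA was sequenced from 30 libraries in 10 groups of 3, grouped by the deposited labels. The authors deposited raw counts per gene, made by trimming with Trim Galore 0.6.0 and cutadapt 1.18, alignment with STAR 2.7.2a to GRCm38 and strand-specific counting with Rsubread on GENCODE M25; the treatment of reads with several matches is not given in the sources used here. A list of Hi-C interactions in P7 mutant Sertoli cells was not used here. All 30 count columns matched a sample, with 0 unmapped.

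From these counts, edgeR 4.0.16 (R 4.3.3) was run with its filter on low counts, trimmed mean of M values scaling and the quasi-likelihood test, in a fit for each age and a fit of all libraries for age and for differences between effects. Benjamini-Hochberg adjustment covered all genes tested. A gene was called at an adjusted p below 0.05 and a fold change above 2. Standard errors were calculated back from the fold change and its F statistic. CPM values within an age use that age's scaling. Shares of counts were compared by two-sided exact permutation tests. The scripts were tested on simulated data.

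The mRNAs and rRNAs could be named in every comparison; tRNAs are named where called, otherwise those with the 2 highest and 2 lowest mean levels among those tested; from each nuclear list at most 4 genes with the smallest adjusted p in a comparison described. Other tRNAs and library values were named after their values were seen. The members and lists were chosen with earlier results of these data known. Alternatives were DESeq2 1.42.0 as test and for scaling, library size alone, scaling to nuclear genes or to somatic marker lists, no filter, a replicate block, only the groups compared, fewer members, and leaving out each library. The somatic lists were those of macrophages, endothelial cells, peritubular myoid cells and stromal cells, and trimmed mean scaling was run on their genes. Nuclear copies were searched in GRCm38 with BLAST 2.17.0, and sequences were read from RefSeq's GRCm38 genome. Depth was 5043838 to 12792811 counts per library, so that 3 counts correspond to 0.234 to 0.595 CPM.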

Additional observations from a re-analysis of the deposited data

Results flagged for a closer look

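The change of *mt-Tl1* in *Dmrt1*-/- against *Dmrt1*+/- gonads at P28 was called as different from that in mutant against control Sertoli cells at P7, by -2.44 on the log2 scale in a test of the difference itself. *mt-Tl1* passed the filter of this fit on the P7 libraries, which enter the test. When 1 library was left out, the adjusted p ran from 0.0058 to 0.126, and the call was lost in most of these fits. For *mt-Nd6* the same contrast gave 0.89, under the 2-fold limit. P7 libraries are isolated cells and P28 libraries whole gonads, so age, tissue and isolation cannot be told apart.

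Counts also fell on 7 annotated genes of the chromosome 1 copy, which no comparison above uses. Over 30 libraries *Gm28439*, matching *mt-Nd4*, had 8244 counts, *Gm10222*, matching *mt-Nd4l*, 2718 and *Gm28438*, matching *mt-Nd3*, 3556. *Gm28437*, matching *mt-Co3*, had 29749 counts, *Gm10925*, matching *mt-Atp6*, 30115, *Gm28661*, matching *mt-Co2*, 18849 and *Gm29216*, matching *mt-Co1*, 24129. These counts lay above the limit that a count of 0 allows. In *Dmrt1*-/- against wild-type gonads at P28 the 7 genes differed by 0.58 (*Gm29216*) to 1.01 (*Gm28438*) on the log2 scale, values near those of the members.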

How the results depend on the processing

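No call against *Dmrt1*+/- or wild-type changed at P3 or P7 under the alternatives run. Counts of called members are given as higher and lower. Without the fold limit, *Dmrt1*-/- against wild-type at P28 had 12 higher, *Dmrt1*-/- against *Dmrt1*+/- 1 higher, *Dmrt1* R111G/+ against *Dmrt1*+/- 2 higher, the age comparison in *Dmrt1* R111G/+ 1 higher and 2 lower, that in *Dmrt1*+/- 2 lower, and the difference between P28 and P7 effects 1 higher. Of the 9 mRNAs and rRNAs outside or partly outside the chromosome 1 copy, a set chosen after seeing the data, *Dmrt1*-/- against wild-type had 1 higher and 0 lower, and the other comparisons 0. DESeq2 as test or for scaling left 1 higher in *Dmrt1*-/- against wild-type, and DESeq2 as test gave 1 lower for the difference between P28 and P3 *Dmrt1*-/- effects. With library size alone *Dmrt1*-/- against wild-type had 12 higher, *Dmrt1* R111G/+ against *Dmrt1*+/- 1 higher, the age comparison in *Dmrt1*+/- 0 higher and 2 lower, and the difference between P28 and P7 effects 1 higher, as with nuclear genes only. Of 20952 genes, library size alone gave 6637 higher in *Dmrt1*-/- against wild-type and 2784 in *Dmrt1* R111G/+ against *Dmrt1*+/-. Without a filter *Dmrt1*+/- against wild-type had 3 higher, the difference between P28 and P3 *Dmrt1*-/- effects 1 lower, and age 1 higher in *Dmrt1* R111G/+ and 2 lower in *Dmrt1*+/-. In the fit of *Dmrt1*-/- and wild-type alone 0 were lower, since *mt-Tl1* did not pass the filter.

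With scaling to somatic marker lists, *Dmrt1*-/- had 0 higher and 16 lower against wild-type and 17 lower against *Dmrt1*+/-, *Dmrt1* R111G/+ had 3 lower against *Dmrt1*+/-, age gave 8 lower in *Dmrt1*-/- and 7 higher in *Dmrt1* R111G/+, and the difference between P28 and P3 *Dmrt1*-/- effects 2 lower. Of 20952 genes, 16182, 15863 and 11423 were lower in the P28 comparisons, in the same order. Of 21696 genes, 9560 were lower with age in *Dmrt1*-/- and 8497 higher in *Dmrt1* R111G/+, and 7886 were lower for the difference between effects. The count of reversals that follows does not include every change of sign. The members' median in *Dmrt1* R111G/+ against *Dmrt1*+/- went from 0.39 to -0.71 under this scaling. With age in *Dmrt1*+/- it went from 0.10 to -0.14 with library size alone. Of 3791 values compared under alternatives, 27 were counted as reversed, all of them log2 fold changes of members with scaling to somatic marker lists. Against wild-type these were *mt-Rnr1* -1.40, *mt-Rnr2* -1.12, *mt-Nd1* -1.46, *mt-Nd2* -1.86, *mt-Co1* -1.80, *mt-Co2* -1.74, *mt-Atp8* -1.28, *mt-Atp6* -1.65, *mt-Co3* -1.50, *mt-Nd3* -1.61, *mt-Nd4l* -1.75, *mt-Nd4* -1.59, *mt-Nd5* -1.62, *mt-Nd6* -1.55 and *mt-Cytb* -1.62. Against *Dmrt1*+/- they were *mt-Rnr2* -1.78, *mt-Nd1* -1.63, *mt-Nd2* -1.90, *mt-Co2* -1.61, *mt-Atp6* -1.78, *mt-Co3* -1.54, *mt-Nd3* -1.37, *mt-Nd4l* -1.26, *mt-Nd4* -1.60, *mt-Nd5* -1.63, *mt-Nd6* -1.43 and *mt-Cytb* -1.74.

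When 1 library was left out, called counts ran from 1 to 3 higher and 1 to 1 lower in *Dmrt1*-/- against wild-type, 0 to 1 higher and 1 to 2 lower against *Dmrt1*+/-, 0 to 1 in each direction in *Dmrt1* R111G/+ against *Dmrt1*+/-, 0 to 1 higher and 1 to 3 lower with age in *Dmrt1*+/-, and 0 to 3 higher and 0 to 1 lower for the difference between P28 and P7 effects. Share differences in percentage points ran from 2.67 to 3.12 in *Dmrt1*-/- against wild-type, 0.559 to 1.19 against *Dmrt1*+/-, 2.18 to 3.02 in *Dmrt1* R111G/+ against *Dmrt1*+/- and 1.70 to 2.29 in *Dmrt1*+/- against wild-type. They ran from -2.33 to 0.531 at P7, from -0.259 to 0.386, -0.373 to 0.437 and -0.214 to 0.504 in *Dmrt1*-/-, *Dmrt1* R111G/+ and *Dmrt1* R111G/- at P3, and with age from 1.57 to 2.40 in *Dmrt1* R111G/+, -0.759 to -0.172 in *Dmrt1*+/- and 0.000758 to 0.646 in *Dmrt1*-/-. Counting only the 13 mRNAs or adding the copy's genes changed none.

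Libraries with the same replicate number deviated together in some pairs only, with correlations of -0.394 to 0.355 at P28, -0.287 to 0.241 at P3 and -0.0371 to 0.505 at P7, so the numbers were not taken as pairs. With the replicate block 2 members were called higher and 1 lower in *Dmrt1*-/- against wild-type, with *mt-Tw* (1.28, adjusted p = 0.0295) in place of *mt-Atp8* (0.97, adjusted p = 0.0611), and no other count of called members changed.

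Depth limits the tRNAs, with 19 to 314 counts on all of them in a library, and the reads shared with the chromosome 1 copy limit the mRNAs inside it.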
